A study of Mus musculus with 15 samples.

Results

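The genes described here are 7 that define the B lymphocyte, namely Cd79a, Cd79b, Cd22, Cr2, Fcer2a, Ms4a1 and Pax5. They were taken by gene symbol, after the Ensembl identifiers of the count table had been matched to symbols, and they are 7 of the 55450 genes in the table. Their levels were compared across the Adult, Old and PDX groups and mouse by mouse.

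B cells recognize antigen through a membrane immunoglobulin that signals through the CD79A and CD79B chains, and the response is tuned by coreceptors on the same membrane, some of which lower the threshold of activation and some of which raise it. PAX5 holds mature cells to the B lineage and is switched off when they become antibody-secreting plasma cells, which also lose most of the surface markers. The liver is not a lymphoid organ in the adult, and its B cells are a minor population of the sinusoids and portal tracts that can grow with age and inflammation.

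The study asked whether protectin DX (PDX), a lipid mediator derived from docosahexaenoic acid, counters frailty in old mice, and the liver data address what age and PDX do to hepatic gene expression. Liver RNA came from 15 female C57BL/6 mice, 5 per group. Mice of the Adult group, A1 to A5, had an age of 6 months at the start, those of the Old group, O1 to O5, an age of 22 months, and corn oil was given to both by daily gavage. In the PDX group, P1 to P5, mice of 22 months at the start were given PDX in corn oil at 30 ng per g of body weight, so that all 3 groups share the gavage and the oil. The protocol gives 9 weeks of gavage and the series description 8 weeks, so the livers are from older mice than these ages. Each library was made from crushed frozen liver of 1 mouse, without sorting of cells, and perfusion of the liver is not described in the sources used here.

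Counted read pairs ranged from 22424383 to 36070835 per mouse, with group medians of 29648247 in Adult, 26607323 in Old and 28692112 in PDX. Levels are given as counts per 1000000 counted pairs (CPM) after TMM scaling, a correction for differences in library composition whose factors ran from 0.884 to 1.33, the highest in O2. Differences were tested with edgeR's quasi-likelihood test in a single fit of all 15 mice, and a gene was called when its p after Benjamini-Hochberg adjustment over all 15808 genes tested was under 0.05. All 7 B cell genes passed the low-count filter and were tested. Cr2 passed through 3 Adult and 2 PDX mice that exceeded the cutoff of 0.367 CPM, and 0 Old mice exceeded it. The libraries of O2 and O5 differ from the others of the Old group in several lists of other cell markers. O2 had the highest T cell, NK cell and Kupffer cell sums of the Old group but a lower hepatocyte sum than O1, O3 and O4. O5 had the lowest NK cell, dendritic cell and hepatocyte sums of that group but its highest stellate cell and cholangiocyte sums. Some results are therefore also given without these mice.

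RefSeq start-site regions, which hold 250 bases before and 50 after the start of transcription, could be matched for 5 of the 7 genes on GRCm38.p6. Those of Cd79a and Cr2, which were called in opposite directions between Old and Adult, and of Cd22 and Fcer2a, which were not called, are shown so that their regulatory letters can be read side by side. RefSeq has 3 such regions for Fcer2a, and the one farthest upstream is shown. Capitals mark matches to short motifs of B lineage and general promoter factors, searched on both strands.
Cd79a, chr7:24897247-24897546, + strand: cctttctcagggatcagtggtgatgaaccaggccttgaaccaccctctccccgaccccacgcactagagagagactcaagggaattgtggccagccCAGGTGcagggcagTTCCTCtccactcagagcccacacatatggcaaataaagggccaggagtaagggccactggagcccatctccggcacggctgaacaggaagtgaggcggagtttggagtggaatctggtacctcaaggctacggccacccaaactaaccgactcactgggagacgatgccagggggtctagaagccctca
Cd22, chr7:30878979-30879278, - strand: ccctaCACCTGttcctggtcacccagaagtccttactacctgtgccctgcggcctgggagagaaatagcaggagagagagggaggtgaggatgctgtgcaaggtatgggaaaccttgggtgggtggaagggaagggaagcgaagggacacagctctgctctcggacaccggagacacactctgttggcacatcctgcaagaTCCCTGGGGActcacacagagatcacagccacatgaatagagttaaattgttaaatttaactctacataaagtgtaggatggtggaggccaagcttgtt
Cr2, chr1:195176670-195176969, - strand: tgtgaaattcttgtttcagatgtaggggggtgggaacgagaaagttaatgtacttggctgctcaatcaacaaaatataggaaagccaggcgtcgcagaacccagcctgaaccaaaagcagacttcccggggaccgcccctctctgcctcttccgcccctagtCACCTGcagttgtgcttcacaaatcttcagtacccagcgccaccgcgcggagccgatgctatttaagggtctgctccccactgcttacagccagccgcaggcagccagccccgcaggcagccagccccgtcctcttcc
Fcer2a, chr8:3694125-3694424, - strand: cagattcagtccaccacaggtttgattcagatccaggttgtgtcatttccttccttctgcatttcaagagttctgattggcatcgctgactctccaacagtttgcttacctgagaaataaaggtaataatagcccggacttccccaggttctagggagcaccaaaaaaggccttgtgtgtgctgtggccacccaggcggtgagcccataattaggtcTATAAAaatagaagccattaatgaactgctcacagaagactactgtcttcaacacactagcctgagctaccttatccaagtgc
Positions below are counted with the start base as 0. The Cd22 region holds the palindrome bound by EBF1, TCCC and GGGA with any 2 bases between them, at -49 to -40, and these letters are present in 0.904% of 32851 regions of the same length. Cd79a, Cd22 and Cr2 each hold the E-box CAGGTG, found in 20.2% of the regions, at -154 to -149 on the sense strand, at -245 to -240 on the antisense strand and at -88 to -83 on the antisense strand, in that order. Cd79a also holds GAGGAA, the only form of ETS site searched, on the antisense strand at -140 to -135 (28.3% of regions). Fcer2a holds the TATA box TATAAA at -33 to -28 (13.6% of regions). Another Fcer2a region, not printed, holds the E-box at -244 to -239 and at -99 to -94 on the sense strand. The octamer ATGCAAAT, present in 1.74% of the regions, was not found in any of these 4 windows. No match overlapped another, and a match of letters is a description of the sequence only.

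Cd79a and Cd79b encode the signaling chains of the B cell receptor and are the 2 members with the highest median level per exon length in the Adult and Old groups. Cd79a lies on chromosome 7 at 24897381 to 24902197 and Cd79b on chromosome 11 at 106311341 to 106314762 (GENCODE M21, GRCm38). Cd79a was at 1.38, 1.13, 1.92, 1.94 and 1.21 CPM in A1 to A5. It was at 3.19, 21.7, 15.0, 2.27 and 2.20 CPM in O1 to O5, and at 12.3, 2.09, 7.22, 2.25 and 2.41 CPM in P1 to P5. Every Old mouse and every PDX mouse was above every Adult mouse, but within each of the older groups 2 mice (O2 and O3, P1 and P3) stood far above the other 3. The mean was 1.51 ± 0.389 CPM (SD, n = 5) in Adult, 8.87 ± 8.97 in Old and 5.26 ± 4.49 in PDX, so the SD of the Old group was as large as its mean. Old exceeded Adult by a log2 fold change of 2.56 (SE 0.71, adjusted p = 0.0437, edgeR's quasi-likelihood test).

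Cd79b followed the same mice. Its level was 2.25, 1.44, 2.10, 2.12 and 2.50 CPM in A1 to A5, 4.16, 23.4, 18.0, 2.45 and 3.50 CPM in O1 to O5 and 12.8, 5.78, 11.5, 4.64 and 5.20 CPM in P1 to P5. O4 fell within the Adult range, while all 5 PDX mice were above all 5 Adult mice. Between Old and Adult the log2 fold change was 2.30 (SE 0.57, adjusted p = 0.0310, edgeR). Between PDX and Adult it was 1.93 (SE 0.57), which did not pass the threshold (adjusted p = 0.0800, edgeR).

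Ms4a1 encodes CD20, a membrane protein of mature B cells that is lost on plasma cell differentiation, and lies on chromosome 19 at 11249675 to 11266241. It showed the largest rise of the 7 genes with age. Ms4a1 was at 1.38, 1.13, 1.73, 1.46 and 0.918 CPM in A1 to A5. It was at 2.89, 25.1, 25.4, 1.90 and 1.62 CPM in O1 to O5 and at 11.1, 3.01, 5.65, 2.54 and 3.72 CPM in P1 to P5. O5 lay inside the Adult range and O4 just above it, whereas O2 and O3 were more than 10 CPM above every other mouse, and the lowest PDX mouse was above the highest Adult mouse. The log2 fold change of Old versus Adult was 3.11 (SE 0.77, adjusted p = 0.0310, edgeR), and that of PDX versus Adult was 1.98 (SE 0.75, adjusted p = 0.151, edgeR).

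Pax5, the transcription factor that maintains B cell identity, lies on chromosome 4 at 44524757 to 44710487, where it is the 1 gene of the 7 with another annotated gene, Mir5120, on its own strand. Its levels were low, at 0.534, 0.317, 0.638, 0.768 and 0.861 CPM in A1 to A5. In O1 to O5 it was at 1.19, 4.83, 5.47, 0.520 and 0.397 CPM, and in P1 to P5 at 3.47, 1.32, 2.62, 1.21 and 1.82 CPM. O4 and O5 fell within the Adult range and the other 3 Old mice above it, and the PDX mice were all above the Adult mice. The log2 fold change of Old versus Adult, 1.99 (SE 0.65), missed the threshold (adjusted p = 0.0695, edgeR), as did that of PDX versus Adult, 1.74 (SE 0.65, adjusted p = 0.146, edgeR).

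Cd22 encodes an inhibitory coreceptor that binds sialic acid and dampens B cell receptor signals, and lies on chromosome 7 at 30865402 to 30880342. It was at 3.04, 1.80, 3.01, 4.35 and 3.50 CPM in A1 to A5 and at 3.27, 28.6, 14.4, 3.60 and 2.34 CPM in O1 to O5. In P1 to P5 it was at 10.2, 9.55, 10.9, 8.93 and 8.05 CPM. The 2 older groups thus had like means, 10.4 ± 11.3 CPM in Old and 9.53 ± 1.11 CPM in PDX (SD, n = 5 each), but a very different spread. O1, O4 and O5 lay inside the Adult range, and every PDX mouse lay above it. The log2 fold change was 1.73 in Old versus Adult (SE 0.56, adjusted p = 0.0682, edgeR) and 1.60 in PDX versus Adult (SE 0.56, adjusted p = 0.127, edgeR).

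Cr2, on chromosome 1 at 195136811 to 195176716, encodes complement receptors of the CR2 locus (CD21), which lower the activation threshold of follicular and marginal zone B cells and also trap immune complexes on follicular dendritic cells. It differed between Old and Adult in the direction opposite to Cd79a, Cd79b and Ms4a1. Cr2 had 20, 10, 10, 14 and 10 counts in A1 to A5, or 0.562, 0.352, 0.456, 0.512 and 0.287 CPM. It had 1, 0, 0, 3 and 0 counts in O1 to O5, and a count of 0 allows up to 3 counts, or 0.0878 CPM in O2, 0.113 in O3 and 0.108 in O5 (counting error only). In P1 to P5 it had 8, 3, 15, 13 and 7 counts, or 0.316, 0.120, 0.473, 0.464 and 0.241 CPM. Every Old mouse was below every Adult and every PDX mouse, and the Adult and PDX groups overlapped. Old versus Adult gave a log2 fold change of -3.70 (SE 0.69, adjusted p = 0.0121, edgeR).

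Fcer2a encodes CD23, the low-affinity IgE receptor of follicular B cells, and lies on chromosome 8 at 3681737 to 3694175. Its level was 1.80, 0.775, 1.05, 0.915 and 1.21 CPM in A1 to A5, 0.467, 1.90, 0.415, 0.520 and 0.216 CPM in O1 to O5 and 0.513, 0.281, 1.51, 0.893 and 0.344 CPM in P1 to P5. In the Old group 4 of 5 mice were below every Adult mouse, and O2 was above them all. The log2 fold change of Old versus Adult was -0.69 (SE 0.55, adjusted p = 0.443, edgeR). Without O2 it was -1.49, still short of the threshold (adjusted p = 0.0902, edgeR).

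**Figure D1:**
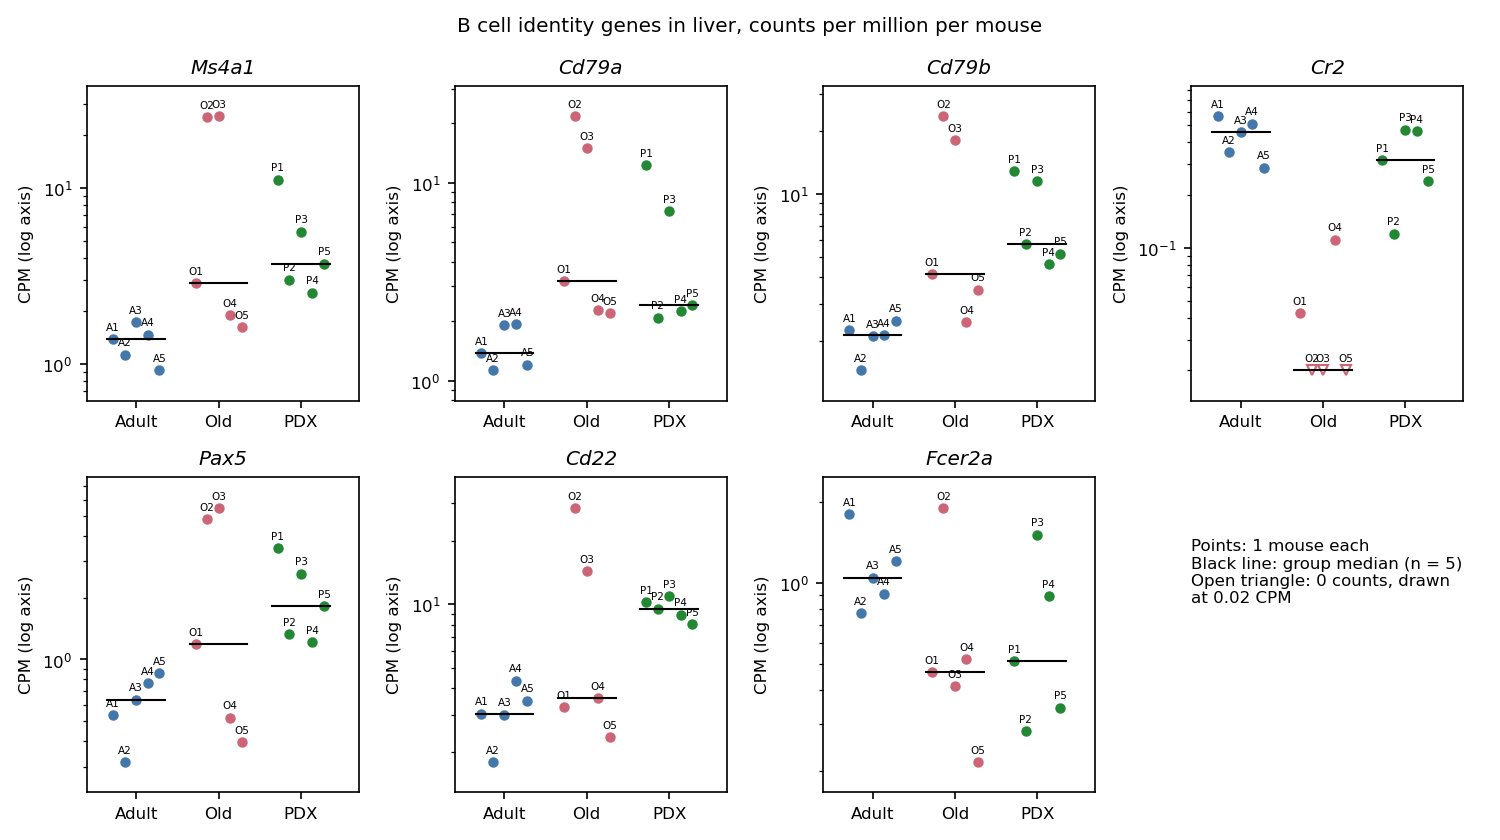
CPM (log axis) of the 7 B cell genes in each mouse, by group, with the group median (n = 5) as a black line and counts of 0 as open triangles drawn at 0.02 CPM. O2 and O3 carry the highest Old levels of Ms4a1, Cd79a, Cd79b, Pax5 and Cd22, while Cr2 is at 0 counts in O2, O3 and O5.

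Between Old and Adult, 4 of the 7 genes were called, Ms4a1, Cd79a and Cd79b higher and Cr2 lower, against 6.78% of all genes tested (4.71% higher and 2.07% lower). In CPM the groups did not overlap for Cd79a, higher in Old, and for Cr2, lower in Old, beside 3.65% of all genes higher and 4.48% lower without overlap. The 3 higher calls did not hold in every fit. Without O2, or without any single Adult mouse, 1 gene was called, and this was Cr2. The fit of the Old and Adult mice alone, in which Cr2 did not pass the low-count filter, called 0 of the 7, and limma on the deposited log2 values called 1. Without O2 the log2 fold change of Cd22 fell to 0.92 (adjusted p = 0.226, edgeR), and those of Ms4a1, Cd79a and Cd79b were 2.60, 1.92 and 1.76. Without both O2 and O5, Ms4a1, Cd79b and Cr2 were called. The shares of all genes called in these other fits are not given here, so their counts of calls stand without a background. Cr2 was called without each mouse in turn, with log2 fold changes between -5.02 and -3.35. It passed the filter through Adult and PDX mice alone, so its calls and lack of overlap are no support for a difference. At an unadjusted p under 0.05 stood 6 of the 7 genes, all but Fcer2a, against 27.7% of all genes, and the same 6 had an adjusted p under 0.25, against 35.5%. In whole liver, fewer cells of a type and less RNA per cell cannot be told apart.

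Between PDX and Old, 0 of the 7 genes were called by edgeR, as were 0% of all genes tested, and DESeq2 also called 0 of the 7. At an unadjusted p under 0.05 stood 1 gene, Cr2, against 5.28% of all genes. The log2 fold change of Cr2 was 3.29 (SE 0.70), and its unadjusted p, 0.000272, was the smallest of the 15808 genes but gave an adjusted p of 0.793 (edgeR), so that at a threshold of 0.25, the one the study used between these groups, 0 genes were called as well. In CPM all 5 PDX mice were above all 5 Old mice for Cr2, which held in that direction for 0.145% of all genes, but the lowest PDX mouse, P2, and the highest Old mouse, O4, both had 3 counts and differ by scaling. The 2 groups had 46 and 4 Cr2 counts in total. Cr2 passed the low-count filter through Adult and PDX mice alone, so its rank and its lack of overlap are no support for a difference. Without O2 and O5 the log2 fold change of Cr2 was 2.56 (adjusted p = 0.300, edgeR). For the other 6 genes the unadjusted p was above 0.05. Ms4a1 was at -1.13 (SE 0.71) and Cd79a at -0.76 (SE 0.66) on the log2 scale, and Cd79b, Pax5 and Cd22 lay between -0.37 and -0.13. Fcer2a was at 0.00 (SE 0.59).

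Between PDX and Adult, 0 of the 7 genes were called by edgeR, against 2.66% of all genes, although 5 of them (Ms4a1, Cd79a, Cd79b, Pax5 and Cd22) were higher in all 5 PDX mice than in any Adult mouse, which was so for 10.5% of all genes. At an unadjusted p under 0.05 stood 5 of the 7 genes, against 20.6% of all genes, and DESeq2 called 3 (Ms4a1, Cd79b and Cd22). The same 5 had an adjusted p under 0.25, against 21.5% of all genes. The spread of each gene was estimated over all 3 groups, the Old mice included. In a fit of the PDX and Adult mice alone all 5 were called, with log2 fold changes from 1.61 (Cd22, SE 0.19, adjusted p = 0.000283, edgeR) to 1.99 (Ms4a1, SE 0.39, adjusted p = 0.00317, edgeR). All 5 were also called in the fit that left out O2 and O5, with the 3 remaining Old mice in it. The 2.66% belongs to the main edgeR fit. The shares of all genes called by DESeq2 and in these other fits are not given here, so their counts stand without a background. Cr2 differed by -0.41 (SE 0.51, adjusted p = 0.707, edgeR) and Fcer2a by -0.69 (SE 0.55, adjusted p = 0.515, edgeR). The comparisons share groups, so the PDX and Old differences from Adult are not independent of each other.

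**Figure D2:**
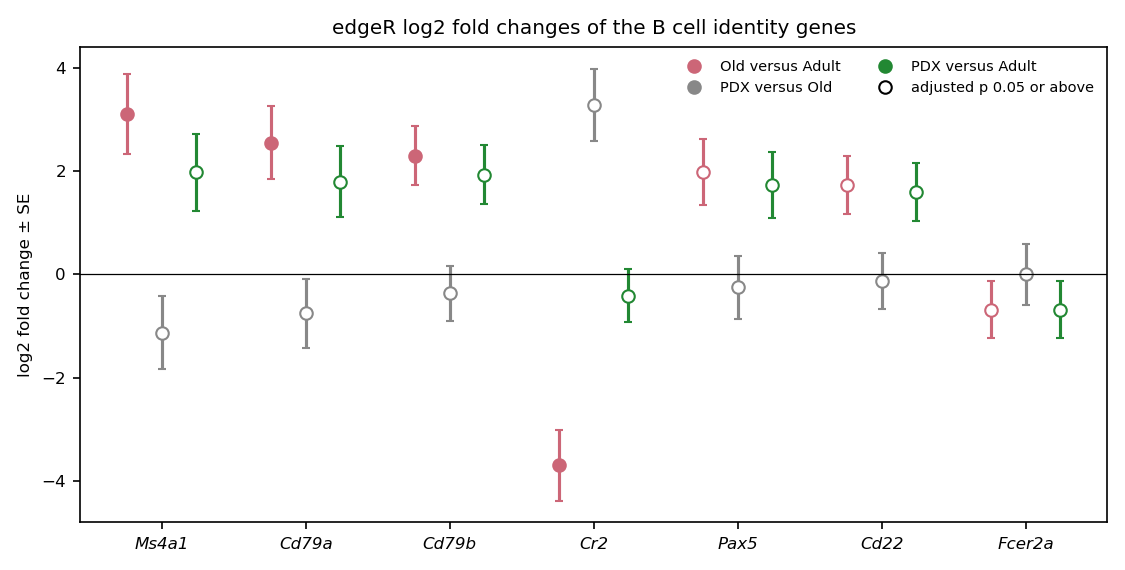
Log2 fold changes of the 7 B cell genes from edgeR, with SE as bars, for Old versus Adult, PDX versus Old and PDX versus Adult, and with open points where the adjusted p was 0.05 or above. The filled points are Ms4a1, Cd79a and Cd79b above 0 and Cr2 below 0, all in Old versus Adult.

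Levels of different genes were set in order only per exon length, as transcripts per 1000000 (TPM). In the Adult group the medians ran from Cd79b (3.94 TPM) through Cd79a (2.42), Cd22 (1.54), Fcer2a (0.855), Ms4a1 (0.571) and Pax5 (0.182) to Cr2 (0.142). Neighbours in this order overlapped between mice, except Ms4a1 and Pax5. In the Old group the order was Cd79b (6.85 TPM), Cd79a (4.71), Cd22 (1.70), Ms4a1 (1.01), Fcer2a (0.373), Pax5 (0.289) and Cr2 (0), and all neighbours overlapped except Pax5 and Cr2. In the PDX group it was Cd79b (9.68 TPM), Cd22 (4.54), Cd79a (4.11), Ms4a1 (1.49), Pax5 (0.512), Fcer2a (0.412) and Cr2 (0.0968), and here Cd79b stood apart from Cd22, Ms4a1 from Pax5 and Fcer2a from Cr2. Fcer2a thus took the fourth place in the Adult group and the sixth in the PDX group, and Cr2 the last place in all 3.

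The log2 levels of 5 of the genes were correlated over the mice. Over the 15 mice the correlation of log2 CPM among Ms4a1, Cd79a, Cd79b, Pax5 and Cd22 (10 pairs) ran from 0.826 to 0.971, from 0.818 to 0.955 after the group means had been subtracted, and from 0.743 to 0.958 without O2. Cr2 correlated with these 5 between -0.506 and -0.282, between -0.316 and -0.106 within groups and between -0.358 and -0.0458 without O2. Fcer2a correlated with them between -0.00824 and 0.130, between 0.445 and 0.604 within groups and between -0.311 and -0.147 without O2. Cr2 and Fcer2a correlated at 0.460 with each other, at 0.379 within groups and at 0.786 without O2. All points of 1 mouse come from 1 library, so they share its depth and its cell makeup, and the values are a description. Besides the 7 genes, the 10 whose log2 CPM was most like the mean z-normalized level of the 7 included Fcmr (r = 0.974, n = 15 mice), the Fc receptor for IgM, Cd2, an adhesion receptor of lymphocytes (0.964), Ltb, which encodes lymphotoxin beta (0.955), Arhgap45 (0.951), H2-Ob, which encodes a chain that tunes peptide loading in B cells (0.949), Itgb7, an integrin chain of gut-homing lymphocytes (0.944), Gimap3 (0.937) and Adgre5, which encodes the leukocyte receptor CD97 (0.934).

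Counts of Cr2, Fcer2a and a few other genes were also set against the Cd79a counts of the same mouse. These ratios were chosen after the values had been seen and are given without a test. Per 100 Cd79a counts there were 40.8, 31.3, 23.8, 26.4 and 23.8 Cr2 counts in A1 to A5. In O1 to O5 there were 1.33, 0, 0, 4.92 and 0, where the 3-count limit is 0.405 in O2, 0.754 in O3 and 4.92 in O5. In P1 to P5 there were 2.56, 5.77, 6.55, 20.6 and 10.0. The Adult mice were above all Old and PDX mice on this scale, and PDX mice overlapped the Old mice, unlike in CPM, since P1 was below O4. Fcer2a gave the same picture, with 47.2 to 131 counts per 100 Cd79a counts in Adult (median 68.8), 2.76 to 23.0 in Old (median 9.84) and 4.17 to 39.7 in PDX (median 14.3).

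Ighd, the constant region of membrane IgD, which naive follicular B cells carry, stood at 169 to 216 counts per 100 Cd79a counts in Adult (median 194). It stood at 6.56 to 144 in Old (median 31.9) and at 67.1 to 173 in PDX (median 85.2). On this scale all Old mice were below all Adult mice, and P4 alone of the PDX mice reached the Adult range. In CPM the groups overlapped. Of the 5 Old mice 2 were above and 2 below every Adult mouse, and the same held for the 5 PDX mice. The lower ratios thus reflect the rise of Cd79a as well as the level of Ighd. Ms4a1 had medians of 90.5, 90.7 and 113 per 100 Cd79a counts in Adult, Old and PDX, with a range of 73.8 to 170 in Old. The other members moved against Cd79a as well. In the same order of groups the medians were 220, 107 and 334 for Cd22, 38.8, 23.0 and 54.0 for Pax5, and 128, 120 and 206 for Cd79b. Zbtb32, a transcription factor of activated, memory and innate-like B cells, ran from 5.66 to 19.0 per 100 Cd79a counts in Adult, from 9.84 to 70.6 in Old and from 14.3 to 63.1 in PDX. It had only 4, 3, 3, 3 and 8 counts in A1 to A5, so its Adult ratios are near the 3-count limit.

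**Figure D3:**
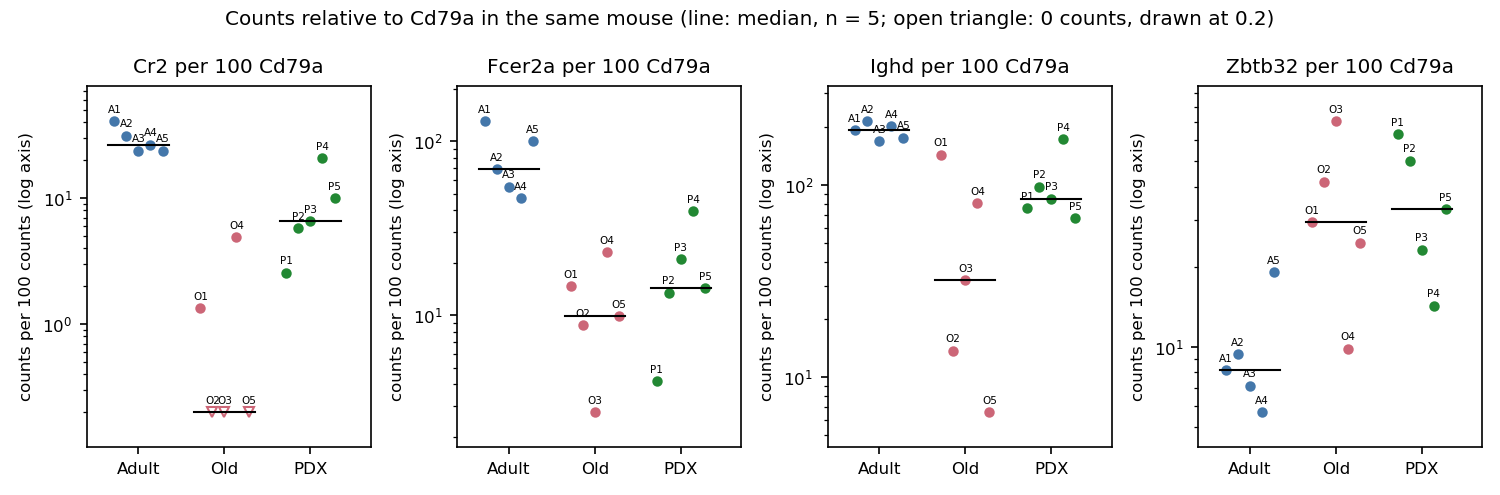
Counts of Cr2, Fcer2a, Ighd and Zbtb32 per 100 counts of Cd79a in the same mouse (log axes), by group, with the group median (n = 5) as a black line and counts of 0 as open triangles drawn at 0.2. The Adult mice are above all Old and PDX mice for Cr2 and Fcer2a, with medians of 26.4 and 68.8.

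Other genes linked to the B lineage were read from lists of 103 genes, of which 86 were tested. Not all are particular to B cells, and Fcgr2b is also in the list of sinusoidal endothelium. In Adult mice the signaling list summed to 438 to 498 CPM and the plasma cell list to 783 to 961 CPM, beside 6.94 to 12.1 CPM for the 7 members. What part other liver cells had in these lists was not tested. The lists were chosen with earlier results of these data known, so their shares of calls are a description only. Between Old and Adult 34 of the 86 genes were called higher and 1 lower, against 4.71% and 2.07% of all genes. The median log2 fold change was 1.81, beside 0.07 over all genes tested. Between PDX and Old 0 were called (median -0.24, all genes -0.07), with 1 at an unadjusted p under 0.05 in edgeR (5.28% of all genes) and 0 called by DESeq2. Between PDX and Adult 8 were called, all higher, against 2.66% of all genes in either direction (median 1.39, all genes -0.01). The Old versus Adult count was 18 without O2, 55 without O5 and between 7 and 10 without any single Adult mouse. The PDX versus Adult count was between 2 and 4 without any single Adult mouse and 5, 4 and 4 without P1, P2 and P3. Shares of all genes called without these mice are not given here, so the counts stand without a background.

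Of 15 further surface molecules 5 were called higher in Old than in Adult, against 4.71% of all genes. Ly6d, a marker used for B cell specification, rose by 3.06 on the log2 scale (SE 0.50, adjusted p = 0.00692, edgeR), and it was above the Adult range in all 5 Old mice, with the highest level, 16.2 CPM, in O5. Cd24a, a glycoprotein of immature B cells and other cells, rose by 2.98 (SE 0.59), and Tnfrsf13c and Tnfrsf13b, the receptors BAFF-R and TACI of B cell survival factors, rose by 3.15 (SE 0.76) and 2.92 (SE 0.71).

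Among 15 genes of B cell receptor signaling 5 were called higher with age and 1 lower, against 4.71% and 2.07% of all genes. Blnk, the adaptor that links the receptor to downstream enzymes, rose by 2.28 (SE 0.51), Dok3, an inhibitory adaptor, by 1.71 (SE 0.39), and the kinase gene Syk by 2.36 (SE 0.60). Bach2, a repressor that delays plasma cell differentiation, fell by 1.01 on the log2 scale (SE 0.25, adjusted p = 0.0297, edgeR), from 5.70 to 11.6 CPM in Adult mice to 2.98 to 6.12 CPM in Old mice, with O1 inside the Adult range. Of 11 tested transcription factors 3 were called higher, against 4.71% of all genes. These were Pou2af1, the coactivator of octamer factors (2.46, SE 0.52), Ikzf3, which encodes Aiolos (3.26, SE 0.76), and Tcf3, which encodes the E2A proteins (0.54, SE 0.13). Ebf1, a partner of Pax5 in B lineage specification, was at 0.55 (SE 0.46) and did not pass (adjusted p = 0.462, edgeR).

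Of 10 tested genes of follicular homing and B cell survival signals 5 were called higher in Old, against 4.71% of all genes. Cxcl13, the chemokine that draws B cells into follicles, rose by 5.96 (SE 1.39, adjusted p = 0.0269, edgeR). Its range went from 2.11 to 4.38 CPM in Adult to 4.37 to 877 CPM in Old, with the top value in O2, and 10.9 to 95.6 CPM in PDX. The homing list summed to 984 CPM in O2 and to 90.3 to 106 CPM in O1, O3, O4 and O5, beside 90.4 to 133 CPM in Adult. Fold changes of single list genes without O2 are not given here. Cxcl13 itself was above every Adult mouse in 4 of 5 Old mice. Its receptor gene Cxcr5 rose by 2.86 (SE 0.79), Cxcr4 by 2.27 (SE 0.53), and Tnfsf13, which encodes the ligand APRIL, by 1.58 (SE 0.40). Ccr7, which guides naive lymphocytes into lymph nodes, was at -0.11 (SE 0.47) and did not pass. Ccl19 and Ccl21a were at 0 in all mice, and both have near-identical copies in the mouse genome from which reads cannot be assigned uniquely.

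Of 8 genes linked to B1 and age-associated B cells 4 were higher in Old (4.71% of all genes), Fcrl5, an Fc receptor-like molecule of innate-like and atypical B cells (6.92, SE 1.36), Zbtb32 (4.89, SE 1.16), Itgax, the CD11c integrin chain shared with dendritic cells and macrophages (3.21, SE 0.76), and the tetraspanin Cd9 (1.12, SE 0.29). Zbtb32 had only 4, 3, 3, 3 and 8 counts in A1 to A5. Fcrl5 was at 0 counts in A2, A3 and A4 and at 0.0861 CPM or less in A1 and A5, against 0.149 to 16.6 CPM in Old and 0.929 to 3.63 CPM in PDX. It was also called in PDX versus Adult, at 5.93 (SE 1.35, adjusted p = 0.0297, edgeR). Tbx21, which encodes T-bet, the factor named with age-associated B cells, was at 0.47 (SE 0.74) in Old versus Adult and did not pass (adjusted p = 0.716, edgeR).

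The antibody-secreting side of the lineage gave calls in both older groups. Of 9 tested plasma cell genes 5 were called in Old versus Adult, all higher, against 4.71% of all genes, among them Derl3, of the endoplasmic reticulum degradation machinery (4.32, SE 0.74), the chaperone gene Mzb1 (3.51, SE 0.68), Irf4 (2.52, SE 0.57) and Fkbp11 (2.25, SE 0.52). Of 11 tested immunoglobulin constant genes 5 were also called higher, and Ighm, the heavy chain of IgM, rose by 3.76 (SE 0.45, adjusted p = 0.00118, edgeR), from 12.1 to 28.0 CPM in Adult mice to 153 to 612 CPM in Old mice. The summed level of the constant genes was 32.2 to 70.5 CPM in Adult, 237 to 1047 in Old and 275 to 909 in PDX. O4 and O5, near the Adult range for Ms4a1 and within it for Pax5, were at 164 and 153 CPM for Ighm. In PDX versus Adult Ighm (4.14), Igkc (3.32), Iglc1 (2.23), Jchain (2.43), Derl3 (3.62), Blnk (2.24), Ly6d (2.35) and Fcrl5 were called.

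Few germinal center and precursor genes were tested, and 1 of each list was called higher in Old versus Adult. Of all genes 4.71% were called higher. Mki67, a proliferation marker of any cycling cell, was the 1 gene called of 4 tested germinal center genes (3.27, SE 0.84), and Bcl6, the factor that defines the germinal center B cell and is also expressed in hepatocytes, was at -0.07 (SE 0.65). Of the precursor list 3 genes were tested and Dntt, which encodes terminal deoxynucleotidyl transferase, was called (1.57, SE 0.45, adjusted p = 0.0489, edgeR). Its CPM ran from 2.14 to 4.44 in Adult, from 1.23 to 14.1 in Old and from 7.22 to 11.5 in PDX. Rag1, Rag2, Igll1 and Vpreb2, which mark cells that rearrange their receptor genes, had 0 counts in all 15 mice, which allows up to 3 counts in each, and Vpreb2 and Vpreb1 are near-identical copies.

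**Figure D4:**
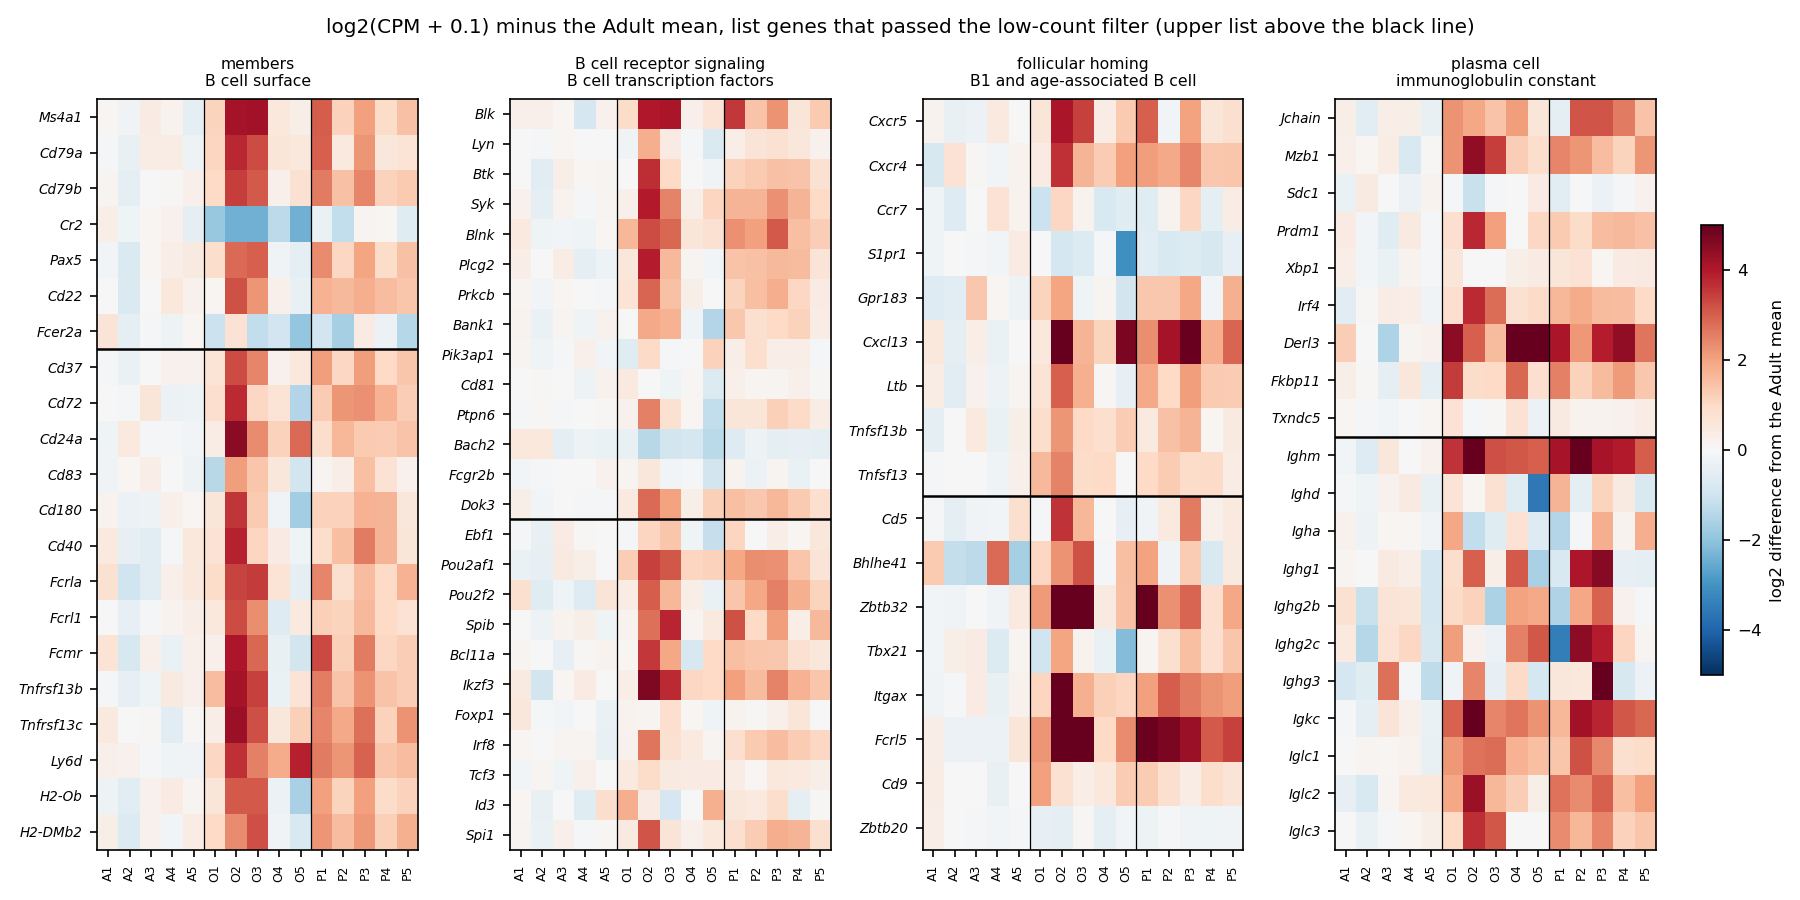
Difference of log2(CPM + 0.1) from the Adult mean for tested genes of 8 B lineage lists in each of the 15 mice, red above and blue below the Adult mean, with colors saturating at 5 and vertical lines between the groups. O2 is darkest red across most surface and signaling genes, and Cr2 is blue in all 5 Old mice.

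Markers of other cells were high in some of the same mice. The 5 genes other than Cr2 and Fcer2a summed to 5.81 to 10.6 CPM in Adult, 10.1 to 104 in Old and 19.6 to 49.9 in PDX, and the highest sum was that of O2. The 14 T cell markers summed to 8.45 to 14.6 CPM in Adult, 6.06 to 228 in Old and 17.4 to 51.0 in PDX, again with the highest sum in O2, where Cd4 reached 116 CPM. In O3, the other Old mouse with high B cell genes, the T cell sum was 18.4 CPM, above the Adult range, and Cd4 was at 0.792 CPM. P1, the PDX mouse with the highest B cell sum, had the lowest T cell sum of that group.

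None of the T cell, NK cell, Kupffer cell, dendritic cell or erythroid genes was called in Old versus Adult by edgeR, with 8 of 14, 3 of 6, 4 of 9, 2 of 6 and 1 of 7 at an unadjusted p under 0.05, against 27.7% of all genes. Cd4 and Cd2 were at 4.79 (SE 1.46) and 2.34 (SE 0.71), each with an adjusted p of 0.0585 (edgeR). Of 7 tested neutrophil genes 5 were called higher, against 4.71% of all genes, led by Prtn3 (6.72, SE 0.95). The summed level of the neutrophil list was 5.04 to 10.2 CPM in Adult, 21.5 to 196 in Old and 50.7 to 189 in PDX. Of 6 tested markers of follicular dendritic cells, which share Cr2 and Fcer2a with B cells, 2 were called (6.78% of all genes), Cr2 itself and Cxcl13. The hepatocyte sum of O2, O3, O5, P2 and P3 was below the Adult range, with 68841 CPM in O5 as the lowest value. What part these cell types had in the B cell values was not tested.

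**Figure D5:**
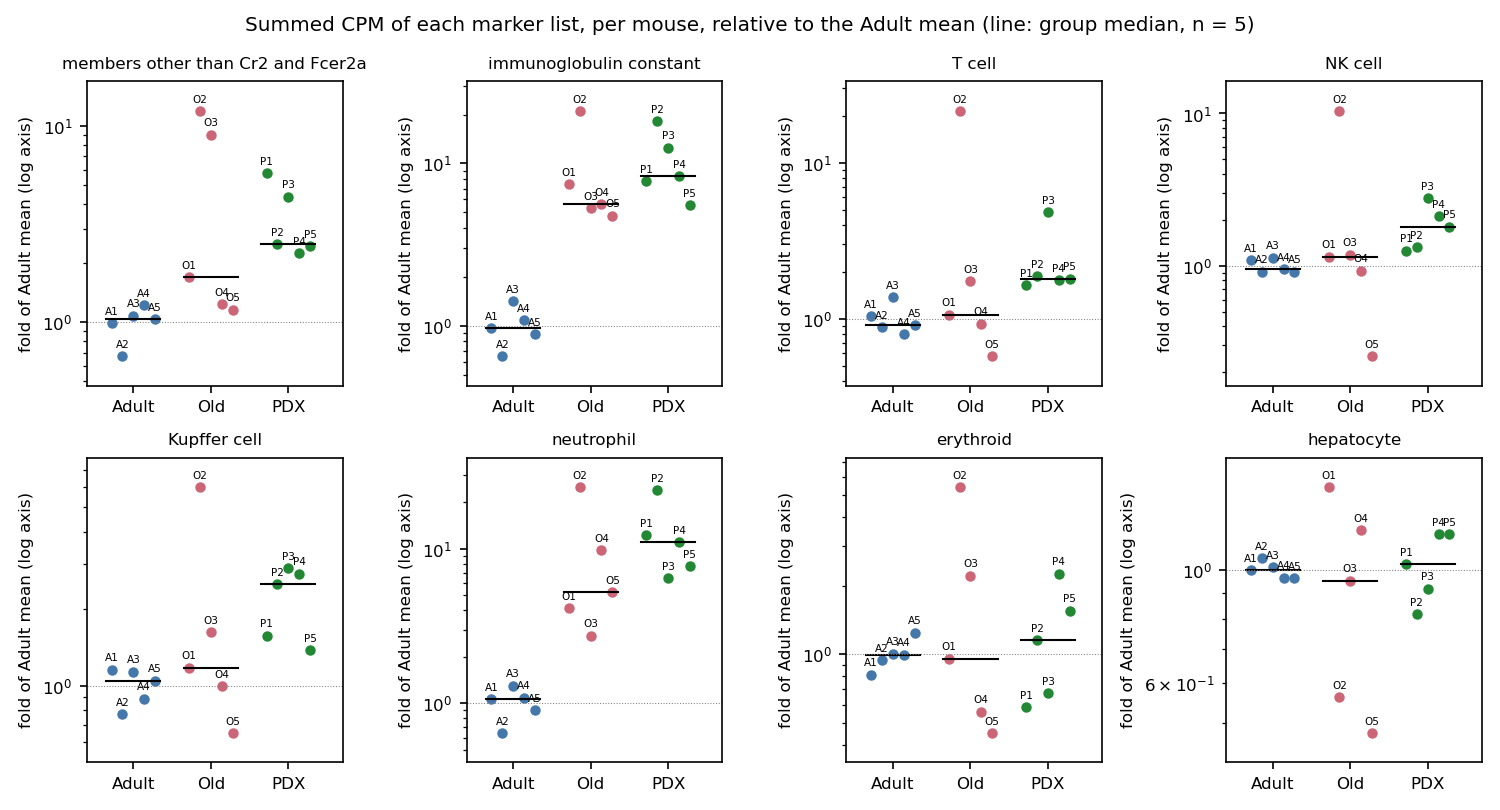
Summed CPM of 8 marker lists in each mouse as a fold of the Adult mean (log axes), by group, with the group median (n = 5) as a black line and the Adult mean as a dotted line. O2 is the highest mouse for the 5 B cell genes (11.9), the immunoglobulin constant genes (21.0), T cells (21.5), NK cells (10.4) and Kupffer cells (5.99), and O3 is at 9.02 for the B cell genes but at 1.74 for T cells.

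The labels also give a count of positive frailty criteria for each mouse. O2 and O3, with the highest B cell levels of the Old group, had 3 each, O4 and O5 had 4 each, and O1 had 1. P1, with the highest Ms4a1 and Cd79a levels of the PDX group, had 0, and P3 had 2. With 5 mice a group these values are given side by side only.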

How the data were processed

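RNA of 15 livers was sequenced as poly(A)-selected, strand-specific paired ends, and 1 library was made per mouse. The authors aligned reads to mm10 with STAR 2.6.0c and counted unique proper pairs per gene with featureCounts (Subread 1.6.2), and deposited the counts without normalization. Log2-scale values that the authors derived with the DESeq2 1.23.10 variance stabilizing transformation served for an alternative. Of 55450 gene IDs, 55104 matched a symbol in GENCODE M21 (GRCm38, the assembly of mm10), which gave positions and exon lengths.

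Counts were filtered with filterByExpr (minimum count 10, minimum total 15), TMM-scaled and fitted with edgeR 4.0.16 in R 4.3.3, all tests being two-sided with Benjamini-Hochberg adjustment over 15808 genes. Correlations used log2 CPM with a prior count of 2. TPM came from exon-union lengths. Alternatives were DESeq2 1.42.0, limma 3.58.1 on the deposited log2 values, other scalings, filters and thresholds, 2-group fits, a replicate block and mice left out. The tests were checked on simulated counts. The members and lists were chosen with earlier results of these data known. Named are all 7 members, genes among the 10 most like them, and of each list the called genes (up to 4 by smallest p, or 2 where none was called) plus genes of textbook role. That the samples are separate mice is given by the labels, and euthanasia batches were not analysed here. Promoters are RefSeq sequences. Some genes of the lists are counted but not reported by name here.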

Additional observations from a re-analysis of the deposited data

Results flagged for a closer look

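Fcer2a in the Old group stood out for a single mouse. O2 was at 1.90 CPM, while the other 4 Old mice were between 0.216 and 0.520 CPM, and the gap to the nearest mouse was 0.820 of the whole range, above the critical value of Dixon's test for 5 samples. This was 1 of 21 groups of values examined (7 genes in 3 groups), and chance flags about 1 in 20. O2 also had the highest summed T cell, NK cell and Kupffer cell markers, and whether this bears on its Fcer2a level was not tested.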

How the results depend on the processing

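The Old versus Adult count of 4 B cell genes was 0 in the fit of the 2 groups alone, in which Cr2 did not pass the low-count filter, 1 with limma on the deposited log2 values, and 1 to 6 without 1 mouse, and it was 3 to 6 under the other alternatives except the replicate block. The PDX versus Adult count of 0 was 3 with DESeq2 and 5 in the 2-group fit, at an adjusted p under 0.25 and without O2 and O5, and it stayed 0 without each mouse in turn. The PDX versus Old count was 0 under all alternatives run. For the wider lineage, the Old versus Adult count of 35 was 53 with DESeq2, 6 in the 2-group fit, 61 at 0.25, 11 with limma and 7 to 55 without 1 mouse, and the PDX versus Adult count of 8 was 33, 62, 57, 5 and 2 to 10 in that order and 58 without O2 and O5. The share of all genes called under each alternative is not given here, and the causes were not tested.

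Directions changed for PDX versus Old alone, where no gene was called. Fcer2a was at -0.0045 with RLE factors, -0.18 by library size and -0.00056 in the 2-group fit. With limma Cd79b was at 0.043, Pax5 at 0.18 and Cd22 at 0.46, and Cd22 was at 0.43 without O2 and O5. Without 1 mouse the ranges were -0.62 to 0.18 for Cd79b, -0.52 to 0.26 for Pax5, -0.39 to 0.69 for Cd22 and -0.48 to 0.82 for Fcer2a.

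With a replicate block the Old versus Adult counts were 1 (members) and 12 (wider lineage), and Pax5 and Cd22 were at 0.053 and 0.28 in PDX versus Old. The numbers were not taken to pair the mice, since of 5 same-numbered pairs 0 had deviations correlated over 0.1 in Old versus Adult (mean -0.17), 3 in PDX versus Old (mean 0.092) and 1 in PDX versus Adult (mean 0.031).

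At 0 to 3 Cr2 counts per Old mouse, the size of the Cr2 difference is limited by depth.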
